A study of Mus musculus with 17 samples.

Results

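The genes described here are Atf4, Ddit3, Trib3, Chac1, Asns, Phgdh, Psat1, Psph, Shmt2 and Mthfd2, chosen by name as genes of the ATF4 stress response and of serine and glycine synthesis, which supplies amino acids for collagen. They were 10 of the 55421 genes in the deposited count table and matched 11 of its rows, because Ddit3 has a second row of 0.0353 CPM on average (read counts relative to the size of the library, scaled between libraries with TMM factors), which was left aside. All 10 were among the 10481 genes tested, those over 10 CPM, before TMM scaling, in 2 or more libraries. Chac1 passed this filter only through libraries from bleomycin-treated Ephb4 control mice, so its difference in that group was partly fixed by the filter. After TMM scaling it was over 10 CPM in 2 libraries, both from that group.

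Lung fibroblasts were cultured from 17 mice, with 1 library of total RNA per mouse. On a C57BL/6J background, every mouse carried floxed Ephb4 alleles and the tamoxifen-inducible Cre transgene Col1a2-CreERT2, which is active in cells that use the Col1a2 promoter. At 4 weeks of age mice received 4-hydroxytamoxifen at 1 mg per day for 5 days (Ephb4 CKO) or corn oil (Ephb4 control), and at 6 weeks bleomycin at 1.2 U/kg, a drug that injures the lung, or PBS. Lungs were taken 14 days later, and the cells were passaged once before RNA was extracted. PBS was given to 4 Ephb4 control and 5 Ephb4 CKO mice, and bleomycin to 4 mice of each genotype. Genotype here means Ephb4 CKO or Ephb4 control. Only the Ephb4 CKO mice received 4-hydroxytamoxifen, so effects of the drug and of the deletion cannot be told apart.

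ATF4 is a transcription factor whose translation rises when stress kinases phosphorylate the initiation factor eIF2, so its protein can change with little change in its mRNA. Its targets include the stress regulators Ddit3 (CHOP) and Trib3, the glutathione-degrading enzyme Chac1, the asparagine synthetase Asns, and the enzymes that make serine from a glycolytic intermediate (Phgdh, then Psat1, then Psph). Shmt2 converts serine to glycine in mitochondria and Mthfd2 carries the released one-carbon unit onward. Glycine is the most frequent residue of the collagen triple helix, and in fibroblasts activated by TGF-β this pathway is known to be induced through ATF4.

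Total counts ranged from 66540022 to 120554468 per library (median 93075927). Ephb4, the targeted gene, was at 16.0 ± 15.3 CPM (SD, n = 4) after PBS and 38.5 ± 21.3 CPM (n = 4) after bleomycin in Ephb4 control mice, and at 9.66 ± 8.09 CPM (n = 5) and 9.64 ± 3.70 CPM (n = 4) in Ephb4 CKO mice, and the genotypes overlapped under both treatments. In 3 libraries the labelled sex was not the one the sex genes gave: mouse 2 of the bleomycin-treated Ephb4 control group, and mice 1 and 2 of the bleomycin-treated Ephb4 CKO group. All 3 received bleomycin, and whether libraries were exchanged between groups cannot be told from these files. The cultures were labelled as primary fibroblasts, but the summed CPM of 20 macrophage markers exceeded that of 14 fibroblast markers in 16 of 17 libraries. Fibroblast markers summed to 9157 to 17017 CPM in bleomycin-treated Ephb4 control mice, against 216 to 10950 CPM after PBS, and in Ephb4 CKO mice to 312 to 3039 CPM after PBS and 373 to 3140 CPM after bleomycin. Macrophage markers summed to 1508 to 21682 CPM in bleomycin-treated Ephb4 control mice, against 11368 to 50905 CPM, 24484 to 42770 CPM and 23875 to 47222 CPM in the other groups in the same order. The smooth muscle markers were Myh11, Cnn1, Des and Acta2. They summed to 2228 to 2791 CPM in bleomycin-treated Ephb4 control mice and to at most 482 CPM after PBS. In Ephb4 CKO mice they summed to at most 232 CPM after PBS and 1475 CPM after bleomycin. The authors use Acta2 (αSMA) as a marker of activated fibroblasts, so this sum cannot tell those from smooth muscle cells. Epithelial markers summed to 183 to 1117 CPM in bleomycin-treated Ephb4 control mice and to 130 to 2078 CPM after PBS. In Ephb4 CKO mice they summed to 102 to 2531 CPM after PBS and 29.9 to 1207 CPM after bleomycin. Mesothelial markers summed to at most 602 CPM. The part of the smooth muscle, epithelial and mesothelial markers in the results was not tested. None of the 5 lymphocyte markers was kept, and they summed to at most 22.0 CPM. In such bulk libraries fewer cells of a type and less RNA per cell cannot be told apart.

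Compared per transcript length (TPM, counts divided by the exon length of each gene and then by their sum in the library), Atf4 was the most abundant of the 10 genes in each group, at 152 ± 34.8 TPM (SD, n = 4) in the bleomycin-treated Ephb4 control group. There Phgdh followed at 102 ± 20.99 TPM, Asns at 79.2 ± 30.5 TPM, Psat1 at 71.8 ± 19.96 TPM and Shmt2 at 51.9 ± 18.7 TPM (n = 4 each). The ranges of neighbours in this order overlapped. Mthfd2 (33.7 ± 10.4 TPM) and Ddit3 (24.8 ± 5.34 TPM) lay below them, and Trib3 (14.4 ± 0.548 TPM), Psph (11.99 ± 4.12 TPM) and Chac1 (10.1 ± 1.73 TPM) were lowest.

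**Figure D1:**
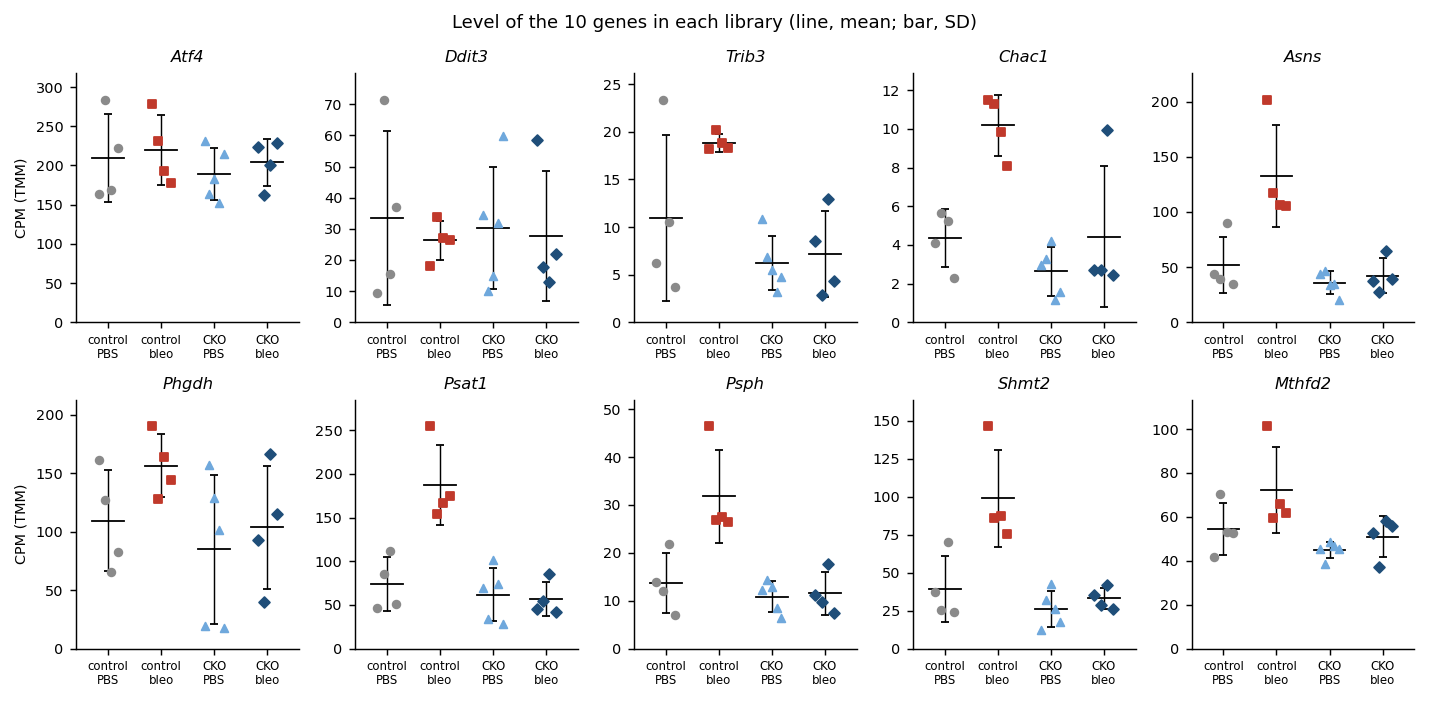
CPM (linear axes from 0, TMM-scaled) of the 10 genes in each of the 17 libraries by group; points are mice, the line is the group mean and the bar the SD. In Asns, Psat1, Psph, Shmt2 and Trib3 the 4 bleomycin-treated Ephb4 control mice lay above all Ephb4 CKO mice given bleomycin, whereas Atf4 and Ddit3 overlapped between all groups.

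Atf4 itself (ENSMUSG00000042406, chromosome 15 of GRCm38, 80255184 to 80257541, forward strand) was nearly level across the study. Its CPM was 164, 284, 169 and 223 in Ephb4 control mice 1 to 4 given PBS and 278, 231, 193 and 178 after bleomycin. In Ephb4 CKO mice it was 231, 164, 183, 152 and 215 CPM after PBS and 224, 163, 200 and 229 CPM after bleomycin. The groups overlapped throughout, and the largest and smallest of the 17 values differed by 1.86-fold, where the median gene kept differed by 3.07-fold. The log2 fold change of Atf4 was 0.07 (SE 0.22, adjusted p = 0.891 in edgeR's quasi-likelihood test) for bleomycin in Ephb4 control mice and -0.11 (SE 0.22, adjusted p = 0.771) for Ephb4 CKO versus control mice after bleomycin. The sign of the first value turned when Ephb4 control PBS mouse 1 (-0.031) or Ephb4 control bleomycin mouse 1 (-0.024) was left out. On the TPM scale, which has no TMM factor, Atf4 was 114 ± 15.8 TPM (SD, n = 4) after PBS and 152 ± 34.8 TPM (n = 4) after bleomycin in Ephb4 control mice, and these groups overlapped as well.

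Ddit3 (ENSMUSG00000025408, chromosome 10, 127290774 to 127296288, forward strand), the gene of the proapoptotic factor CHOP, varied widely within groups. Its range was 9.52 to 71.4 CPM after PBS and 18.2 to 33.7 CPM after bleomycin in Ephb4 control mice. In Ephb4 CKO mice the range was 10.0 to 60.0 CPM after PBS and 12.8 to 58.6 CPM after bleomycin. Its log2 fold changes, -0.34 (SE 0.64) for bleomycin in Ephb4 control mice and 0.08 (SE 0.64) for Ephb4 CKO versus control after bleomycin, were smaller than their standard errors, and several alternative settings turned their signs. Its locus overlaps Mars on the opposite strand, and its second row lies within it.

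Trib3 (ENSMUSG00000032715, chromosome 2, 152337422 to 152344032, reverse strand) encodes a pseudokinase that restrains ATF4. It was 6.23, 23.3, 10.5 and 3.67 CPM in Ephb4 control mice 1 to 4 given PBS and 18.2, 20.2, 18.8 and 18.3 CPM after bleomycin. In Ephb4 CKO mice it was 10.8, 6.82, 5.49, 3.21 and 4.78 CPM after PBS and 8.50, 2.91, 12.98 and 4.38 CPM after bleomycin. The 4 bleomycin-treated Ephb4 control mice were close to each other and above all Ephb4 CKO mice, but Ephb4 control PBS mouse 2 was higher still. The log2 fold change was 0.79 (SE 0.54) for bleomycin in Ephb4 control mice and -1.39 (SE 0.55) for Ephb4 CKO versus control after bleomycin, with adjusted p-values of 0.495 and 0.219 in edgeR's quasi-likelihood test. Without Ephb4 control PBS mouse 2 the first value was 1.48.

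Chac1 (ENSMUSG00000027313, chromosome 2, 119351229 to 119354381, forward strand) was 4.11, 5.67, 5.25 and 2.31 CPM in Ephb4 control mice given PBS and 11.5, 11.3, 9.86 and 8.09 CPM after bleomycin. In Ephb4 CKO mice it was 1.15 to 4.19 CPM after PBS and 2.69, 2.69, 9.92 and 2.42 CPM after bleomycin. The Ephb4 control groups did not overlap, whereas Ephb4 CKO bleomycin mouse 3 lay within the Ephb4 control bleomycin range. The log2 fold changes were 1.23 (SE 0.53) and -1.20 (SE 0.53), with adjusted p-values of 0.332 and 0.233 in edgeR's quasi-likelihood test, and the second was -1.97 without that mouse.

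ATF4 binds, with C/EBP partners, a C/EBP-ATF response element, and the letters TGATGNAA were searched on both strands of the 250 bases before and 50 bases after each annotated start (RefSeq, GRCm38.p6). They were found near the starts of 3 of the 10 genes, Asns, Chac1 and Trib3, as they were for 4.5% of the 27025 genes with such a window and 6 of 17 other ATF4 targets listed for this work. Every match found in the 10 genes is printed, whatever the level of the gene, with the 8 motif letters in capitals in the direction of the gene. The match in Asns begins 23 bases before the start (window chr6:7693214-7693243, reverse strand). In Chac1 the element is on the opposite strand and the match begins 193 bases before the start (window chr2:119351038-119351067, forward strand). In Trib3 it is also on the opposite strand and the match begins 15 bases after the start (window chr2:152344028-152344057, reverse strand).
Asns: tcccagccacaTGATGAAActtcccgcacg
Chac1: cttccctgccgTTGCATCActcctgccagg
Trib3: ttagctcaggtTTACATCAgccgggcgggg
The letters were not in the windows of Atf4, Ddit3, Phgdh, Psat1, Psph, Shmt2 and Mthfd2, of which Psat1, Psph and Shmt2 had fold changes close to those of Asns. A match describes the sequence and does not show binding.

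Asns (ENSMUSG00000029752, chromosome 6, 7675169 to 7693254, reverse strand) makes asparagine from aspartate and glutamine. It was 43.7, 39.5, 90.2 and 34.3 CPM in Ephb4 control mice given PBS and 202, 117, 106 and 106 CPM after bleomycin. Ephb4 CKO mice had 43.4, 46.6, 34.0, 35.0 and 20.3 CPM after PBS and 37.6, 27.7, 64.5 and 39.4 CPM after bleomycin. Every bleomycin-treated Ephb4 control mouse was above every mouse of the other groups, with mouse 1 far above the others of its group. The log2 fold change was 1.35 (SE 0.36, a 2.56-fold difference) for bleomycin in Ephb4 control mice and -1.65 (SE 0.36, a 3.14-fold difference) for Ephb4 CKO versus control after bleomycin. The adjusted p-values of edgeR's quasi-likelihood test were 0.268 and 0.187, and by its unadjusted p Asns was at place 13 of the 10481 genes in the second comparison. In DESeq2 the adjusted p-values were 0.0255 and 0.00324, the lowest over the alternatives tried, which reached 0.995 and 0.999.

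Serine synthesis begins with Phgdh (ENSMUSG00000053398, chromosome 3, 98313170 to 98339990, reverse strand), which oxidizes 3-phosphoglycerate. It was 161, 127, 65.8 and 82.7 CPM in Ephb4 control mice given PBS and 190, 128, 164 and 144 CPM after bleomycin. Ephb4 CKO mice had 19.6, 157, 129, 102 and 17.4 CPM after PBS and 92.7, 39.5, 167 and 115 CPM after bleomycin. Phgdh therefore spanned 10.9-fold, with Ephb4 CKO PBS mice 1 and 5 lowest, and its groups overlapped in each comparison. Its log2 fold change was 0.52 (SE 0.61) for bleomycin in Ephb4 control mice and -0.60 (SE 0.61) for Ephb4 CKO versus control after bleomycin, with adjusted p-values of 0.683 and 0.562 in edgeR's quasi-likelihood test. Among animals whose number begins with 12, the first value was -0.030, with 1 PBS mouse. A processed pseudogene, Phgdh-ps1, is annotated on chromosome 7.

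Psat1 (ENSMUSG00000024640, chromosome 19, 15904678 to 15947337, reverse strand), the aminotransferase of the next step, was 46.4, 85.4, 112 and 50.5 CPM in Ephb4 control mice given PBS and 255, 154, 167 and 175 CPM after bleomycin. It was 69.5, 34.4, 102, 73.8 and 28.1 CPM after PBS in Ephb4 CKO mice and 45.3, 54.1, 85.7 and 41.9 CPM after bleomycin. The bleomycin-treated Ephb4 control mice again lay above all other mice. The log2 fold change was 1.35 (SE 0.40) in the bleomycin comparison and -1.72 (SE 0.41, a 3.31-fold difference) in the genotype comparison after bleomycin, with adjusted p-values of 0.275 and 0.187 in edgeR's quasi-likelihood test. In DESeq2 the adjusted p-values were 0.0506 and 0.00589 (0.0319 to 0.995 and 0.00492 to 0.999 over the alternatives). The pseudogene Gm3329 overlaps the Psat1 locus on the opposite strand.

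Psph (ENSMUSG00000029446, chromosome 5, 129765558 to 129787449, reverse strand), the phosphatase that releases serine, was 13.9, 11.97, 21.9 and 6.91 CPM in Ephb4 control mice given PBS and 46.4, 26.9, 27.5 and 26.4 CPM after bleomycin. Its range in Ephb4 CKO mice was 6.47 to 14.3 CPM after PBS, and it was 11.2, 9.67, 17.7 and 7.49 CPM after bleomycin. The order of the mice resembled that of Asns, with mouse 1 far above the other bleomycin-treated Ephb4 control mice. The log2 fold changes were 1.22 (SE 0.36) and -1.47 (SE 0.36), with adjusted p-values of 0.275 and 0.187 in edgeR's quasi-likelihood test and 0.0577 and 0.0127 in DESeq2, the lowest of ranges that reached 0.995 and 0.999. Its locus overlaps Cct6a on the opposite strand.

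Shmt2 (ENSMUSG00000025403, chromosome 10, 127517123 to 127522444, reverse strand) was 37.0, 25.2, 70.4 and 23.8 CPM in Ephb4 control mice given PBS and 146, 86.1, 87.4 and 75.7 CPM after bleomycin. Ephb4 CKO mice had 12.1, 31.9, 42.5, 26.1 and 17.4 CPM after PBS and 35.6, 28.7, 41.8 and 25.96 CPM after bleomycin. The lowest bleomycin-treated Ephb4 control mouse was just above the highest mouse of all other groups, Ephb4 control PBS mouse 3. The log2 fold changes were 1.34 (SE 0.40) and -1.58 (SE 0.40), with adjusted p-values of 0.275 and 0.187 in edgeR's quasi-likelihood test. DESeq2 gave 0.0562 and 0.0131 (0.0497 to 0.995 and 0.0131 to 0.999 over the alternatives). Shmt2 spanned 12.1-fold over the 17 libraries, the widest of the 10 genes. Its locus overlaps Ndufa4l2 on the opposite strand.

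Mthfd2 (ENSMUSG00000005667, chromosome 6, 83305691 to 83325908, reverse strand) spanned only 2.72-fold. It was 41.5, 70.4, 53.1 and 52.8 CPM in Ephb4 control mice given PBS and 101, 59.7, 65.9 and 61.5 CPM after bleomycin. Its range in Ephb4 CKO mice was 38.6 to 48.3 CPM after PBS and 37.3 to 58.3 CPM after bleomycin, so the genotypes did not overlap after bleomycin, by a narrow margin. The log2 fold changes were 0.41 (SE 0.20) and -0.50 (SE 0.20), with adjusted p-values of 0.370 and 0.221 in edgeR's quasi-likelihood test, and the first was 0.23 without Ephb4 control bleomycin mouse 1. The annotated gene Gm43890 lies within the Mthfd2 locus on the same strand.

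**Figure D2:**
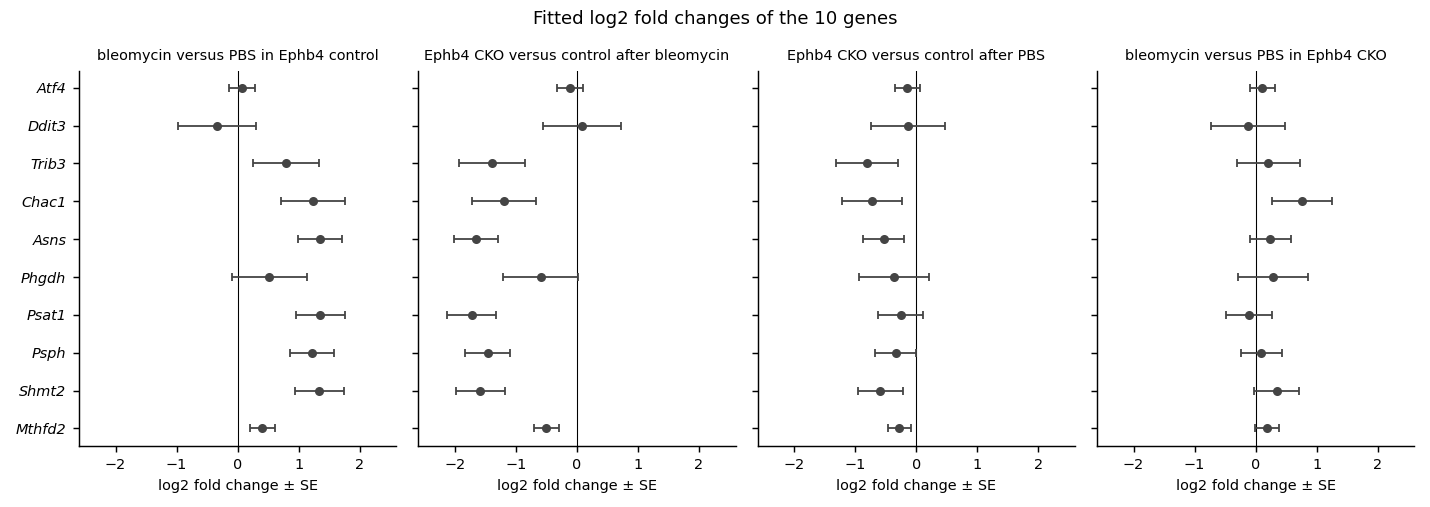
Fitted log2 fold changes (points) and their standard errors (bars) of the 10 genes from edgeR in 4 comparisons, on a shared axis. Asns, Psat1, Psph and Shmt2 were between 1.22 and 1.35 in the first comparison and between -1.72 and -1.47 in the second, which shares the bleomycin-treated Ephb4 control mice with it, while Atf4 and Ddit3 stayed near 0.

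The first comparison asked how the genes differed in Ephb4 control mice after bleomycin. Of the 10 genes, 9 were higher than after PBS, with a median log2 fold change of 1.00 (0.79 over the 9 genes without Chac1), where the median of all genes tested was -0.06. Asns, Psat1, Shmt2, Psph and Chac1 had an unadjusted p under 0.05, and in the same 5 genes the groups did not overlap. Without Chac1, which the filter kept through this bleomycin group, there were 4 of 9. At that unadjusted threshold 6.28% of all genes tested were higher and 7.98% lower, and 5.72% had groups that did not overlap, with bleomycin above. After adjustment 0 of the 10 genes and 0% of all genes passed 0.05 in edgeR's quasi-likelihood test (smallest adjusted p = 0.118). DESeq2 called 1 of the 10, Asns, where it called 0.935% of all genes higher, and limma voom called 0 (6 at an unadjusted p under 0.05, as were 11.1% of all genes, higher). With TMM factors taken from all genes of the table, the split of all genes at the unadjusted threshold changed from 658 higher and 836 lower to 837 and 604, and the median of the 10 genes was 1.07.

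The genotypes were compared after bleomycin to ask how the cultured cells of Ephb4 CKO and control mice differed. The deletion and the drug that induced it cannot be told apart in this comparison. The same bleomycin-treated Ephb4 control mice were used, so the 2 sets of values are not independent. Of the 10 genes, 9 were lower in Ephb4 CKO mice, with a median log2 fold change of -1.30 (-1.39 without Chac1) against 0.01 for all genes tested. An unadjusted p under 0.05 was found for 7 genes, all lower (Asns, Psat1, Psph, Shmt2, Trib3, Mthfd2 and Chac1), where 9.18% of all genes were lower and 11% higher. Without Chac1, kept through the Ephb4 control group of this comparison, there were 6 of 9. In Asns, Psat1, Psph, Shmt2, Trib3 and Mthfd2 the groups did not overlap, where 12.2% of all genes had Ephb4 CKO mice below Ephb4 control mice. By adjusted p, edgeR's test called 0 of the 10 and 0% of all genes (smallest 0.187), limma voom 0 (7 at an unadjusted p under 0.05, as were 1257 of all genes, lower), and DESeq2 4, namely Asns, Psat1, Psph and Shmt2, where it called 2.42% of all genes lower. The 7 genes at the unadjusted threshold became 4 without Ephb4 CKO bleomycin mouse 2 (11.1% of all genes lower) and 4 without the 3 libraries of mismatched sex (8.58%). With TMM factors from all genes, the split of all genes was 888 higher and 1121 lower in place of 1157 and 962, and the median of the 10 genes was -1.35.

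After PBS, all 10 genes were lower in Ephb4 CKO mice, with log2 fold changes from -0.81 (Trib3) to -0.14 (Ddit3) and a median of -0.35 against -0.02 for all genes. None had an unadjusted p under 0.05 (1.99% of all genes did), none had an adjusted p under 0.05 in edgeR (0% of all genes), DESeq2 or voom, and each overlapped between the groups (0.248% of all genes did not). Between bleomycin-treated and PBS-treated Ephb4 CKO mice, 8 of 10 genes were higher, with a median log2 fold change of 0.20 against -0.03 for all genes and the highest value in Chac1 (0.75, SE 0.49). There 0 of the 10 passed an unadjusted p of 0.05 (0.964% of all genes) or an adjusted one in edgeR (0% of all genes), DESeq2 or voom, and 0 had groups that did not overlap (0.0859% of all genes).

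Whether the response to bleomycin differed between the genotypes was tested as an interaction. It was most negative for Psat1 (log2 difference -1.47, SE 0.55), Psph (-1.13, SE 0.49) and Asns (-1.12, SE 0.49), which had an unadjusted p under 0.05, as 3.46% of all genes did in either direction. In edgeR's quasi-likelihood test 0 of the 10 genes and 0% of all genes passed after adjustment (0.916 for these 3 genes), and DESeq2 and voom called 0 as well. The median over the 10 genes was -0.53 (-0.58 without Chac1), against 0.00 for all genes.

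The deposited columns fall into 2 sorted runs of 8 and 9 libraries, the sizes of the 2 sequencing sets that the labels describe, but the set of each library is not stated there. Within the first run (2 mice against 2) the median difference in log2 CPM of the 10 genes was 0.65 for bleomycin in Ephb4 control mice and -1.05 for Ephb4 CKO versus control after bleomycin. Within the second run (2 against 2) these were 1.82 and -1.80, so the medians had the same direction in both runs and were larger in the second. Single genes did not all do so. For bleomycin 7 of the 10 were positive in the first run and 10 in the second. For genotype, Phgdh was 0.03 and -1.54 in the 2 runs, and Ddit3 -0.83 and 0.54.

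The genes were then set against the cell type markers within groups. There, a score of the fibroblast markers (their mean log2 CPM) had a slope of 0.16 (SE 0.06, adjusted p = 0.0877 in edgeR) for Shmt2 and 0.14 (SE 0.06, adjusted p = 0.133) for Psph, in log2 per unit of score. On a macrophage score Asns had a slope of -0.34 (SE 0.11, adjusted p = 0.0703), Psph of -0.34 (SE 0.11, adjusted p = 0.0796) and Shmt2 of -0.32 (SE 0.13, adjusted p = 0.160) in edgeR. By adjusted p none of the 10 genes passed 0.05 on the fibroblast or the macrophage score (9.09% and 7.32% of all genes did), and at an unadjusted p under 0.05 there were the 2 and 3 genes just named. DESeq2 called Shmt2 on the fibroblast score, where it called 17.7% of all genes, and Asns and Psph on the macrophage score, where it called 20.5%. Shmt2 was also called by edgeR without Ephb4 CKO PBS mouse 1 (10.3% of all genes) or 2 (15.8%). On the macrophage score, Asns and Psph were called without Ephb4 control bleomycin mouse 1 (17.8% of all genes) or Ephb4 CKO bleomycin mouse 3 (7.5%), and Asns without Ephb4 CKO bleomycin mouse 2 (6.36%).

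Single mice differed in how the genes and these markers went together. Ephb4 control PBS mouse 3 had a summed fibroblast level of 10950 CPM, within the range after bleomycin, and the highest Asns, Psat1, Psph and Shmt2 of its group, but also the lowest Phgdh. Ephb4 CKO bleomycin mouse 2, with the highest fibroblast sum of its group (3140 CPM), was highest for 0 of the 10 genes and lowest for 5. Ephb4 CKO bleomycin mouse 3, at 528 CPM of fibroblast markers, was highest of its group for 8 of the 10 genes. Its epithelial markers summed to 1207 CPM, the highest of its group, and its proliferation markers to 850 CPM, the highest of the 17 libraries. Ephb4 control bleomycin mouse 1, with the lowest macrophage sum (1508 CPM) and the highest fibroblast sum of all libraries, was the highest of all 17 for 7 genes.

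With the fibroblast score as a covariate, the median log2 fold change of the 10 genes was 0.70 for bleomycin in Ephb4 control mice, with 1 gene at an unadjusted p under 0.05 in place of 5. For Ephb4 CKO versus control after bleomycin it was -0.87, with 4 genes in place of 7. All genes tested became fewer as well with this score, from 658 to 216 higher in the first comparison and from 962 to 249 lower in the second. With the macrophage score the medians were 0.79 and -0.92, each with 4 genes, where 293 of all genes were higher and 175 lower. Asns was 1.02 (SE 0.44) and -1.27 (SE 0.45) with the fibroblast score, and 0.90 (SE 0.30) and -1.01 (SE 0.33) with the macrophage score. These scores differ between the groups compared, so how much of a difference belongs to the cells present cannot be told apart from the rest. The medians and counts of the 10 genes given here include Chac1, which the filter kept through the bleomycin-treated Ephb4 control group.

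**Figure D3:**
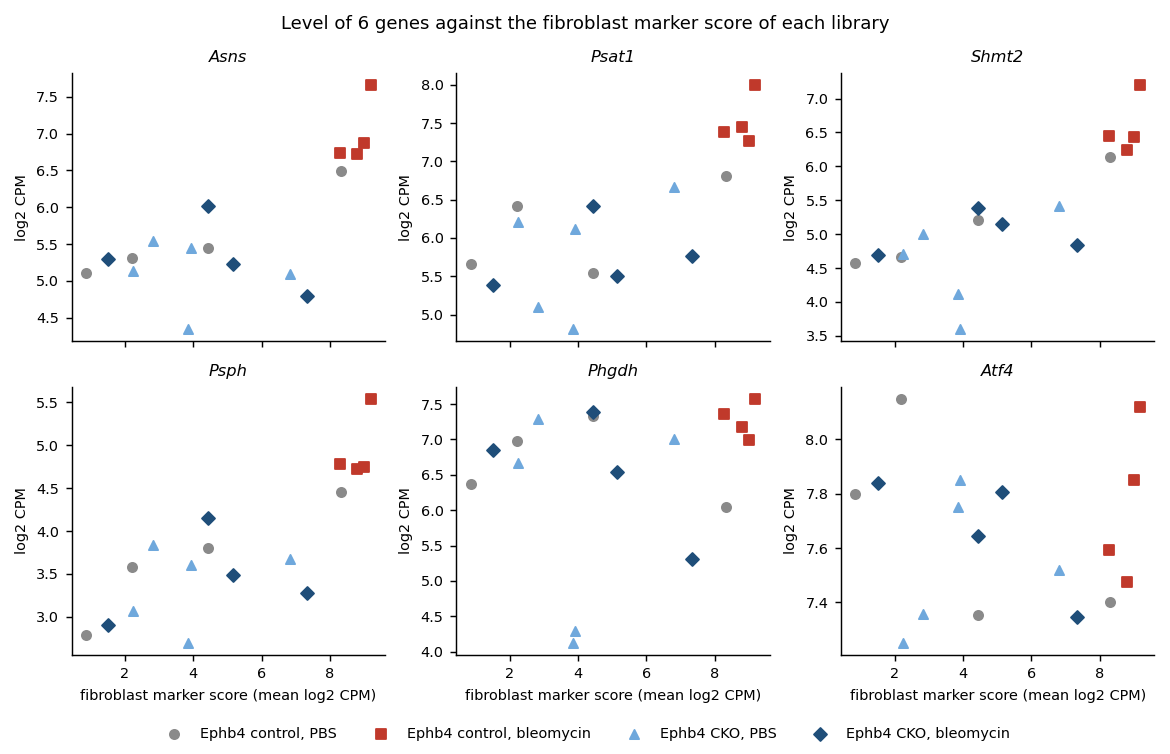
Log2 CPM of 6 genes (vertical axes) against the fibroblast marker score (mean log2 CPM, horizontal axes) in the 17 libraries, with groups by colour and shape. The 4 bleomycin-treated Ephb4 control mice and Ephb4 control PBS mouse 3 sat at scores of 8.28 to 9.19 with the 5 highest levels of Asns, Psat1, Shmt2 and Psph, while Phgdh and Atf4 showed no such grouping.

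The RNAs of type I and III collagen, proteins rich in glycine, were as uneven as the fibroblast markers they belong to. Col1a1 was 225 ± 425 CPM (SD, n = 4, 0.360 to 861) after PBS and 1418 ± 656 CPM (n = 4) after bleomycin in Ephb4 control mice. In Ephb4 CKO mice it was 39.5 ± 62.1 CPM (n = 5) after PBS and 54.6 ± 70.2 CPM (n = 4) after bleomycin. Col1a2 was 2831 ± 810 CPM and Col3a1 3214 ± 1183 CPM in bleomycin-treated Ephb4 control mice, against 151 ± 214 CPM and 77.1 ± 94.0 CPM in bleomycin-treated Ephb4 CKO mice (n = 4 each). In the Ephb4 control PBS group, mouse 4 had 0.360 CPM of Col1a1 and still 34.3 CPM of Asns, 82.7 CPM of Phgdh and 223 CPM of Atf4.

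Genes most like a member were found by the root mean square difference of centred log2 CPM over the 17 libraries, where smaller values are closer. The value is also small for any 2 genes that vary little, so it does not measure a shared pattern alone. Closest to Atf4 were Exosc4 (0.14), Tut1 (0.15) and Gtpbp6 (0.16), where the median gene was at 0.53. Phgdh had no close match, with Tns1 (0.53), Shmt1 (0.56) and Afap1 (0.57) nearest and the median gene at 1.11. Psat1 was nearest to Txndc5 (0.39), Tbl2 (0.40) and Kdelr2 (0.41), against a median of 1.01. Among the 10 genes the closest pairs were Atf4 with Mthfd2 (0.25) and Asns with Psph (0.26). Atf4 and Mthfd2 had the narrowest ranges of the 10 genes (1.86-fold and 2.72-fold), whereas Asns and Psph spanned 9.92-fold and 7.15-fold. Ddit3 was the most distant, at 0.74 from Atf4 and 1.20 to 1.57 from 7 of the others. Phgdh and Ddit3 also had the widest spread within groups (SD of log2 CPM 1.00 and 0.97).

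Further genes of the pathways were taken from lists by name. The kinases and regulators upstream of ATF4 (Eif2ak1 to Eif2ak4, Eif2s1, Eif2b5, Ppp1r15a, Ppp1r15b and Gcn1, with the other arms of the unfolded protein response Ern1, Xbp1 and Atf6) were all kept. In both bleomycin comparisons 0 of these 12 had an unadjusted p under 0.05, with median log2 fold changes of -0.12 and 0.10. Among all genes 6.28% were higher and 7.98% lower in the first comparison and 11% and 9.18% in the second, so 0 of 12 is near the background. The kinase gene Eif2ak2 (PKR) was higher in Ephb4 CKO than control mice after PBS, at 81.8 ± 38.9 against 43.8 ± 7.21 CPM (log2 fold change 0.90, SE 0.41, adjusted p = 1.00 in edgeR).

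Of 21 other ATF4 targets 19 were kept. For bleomycin in Ephb4 control mice 6 were higher and 2 lower at an unadjusted p under 0.05, with a median log2 fold change of 0.53, and for Ephb4 CKO versus control after bleomycin 1 was higher and 6 lower, with a median of -0.79. The shares of all genes were 6.28% higher and 7.98% lower in the first comparison, and 11% and 9.18% in the second. In edgeR 0 of them passed after adjustment. Atf5, a related stress factor, was 16.2 ± 4.57 CPM (SD, n = 4) after PBS and 48.3 ± 8.92 CPM (n = 4) after bleomycin in Ephb4 control mice, and 20.1 ± 6.00 CPM (n = 4) in bleomycin-treated Ephb4 CKO mice, without overlap. Its log2 fold changes were 1.57 (SE 0.30, adjusted p = 0.237 in edgeR) and -1.27 (SE 0.30, adjusted p = 0.187), and it had the interaction with the smallest unadjusted p of the list (-1.28, SE 0.41, adjusted p = 0.916).

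The amino acid transporter genes of this list did not all go one way. Slc7a5, which imports large neutral amino acids, had log2 fold changes of 1.60 (SE 0.47) and -1.88 (SE 0.48), the arginine transporter Slc7a1 of 0.74 (SE 0.30) and -0.83 (SE 0.30), and the serine transporter Slc1a4 of 1.76 (SE 0.78) and -2.23 (SE 0.80). The others lay outside the rule for naming and are given after their values were seen. The glycine transporter Slc6a9 had 1.66 (SE 0.74) and -1.96 (SE 0.74), Slc1a5 0.56 (SE 0.23) and -0.38 (SE 0.23), and Slc38a2 0.53 (SE 0.40) and -0.53 (SE 0.40). The cystine transporter Slc7a11 had the opposite signs (-1.29, SE 0.74, and 1.47, SE 0.74), as did Slc3a2, the partner chain of Slc7a5 and Slc7a11 (-0.31, SE 0.45, and 0.50, SE 0.45). Slc7a5 also had an interaction of -1.40 (SE 0.64). The stress factor Atf3 was 107 ± 83.3 CPM after PBS and 33.2 ± 18.9 CPM after bleomycin in Ephb4 control mice and 147 ± 62.4 CPM in bleomycin-treated Ephb4 CKO mice (n = 4 each), log2 fold changes of -1.69 (SE 0.71) and 2.14 (SE 0.72). Cebpg, a partner of ATF4, was also lower after bleomycin (-0.52, SE 0.20).

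Of 20 other genes of serine, glycine and one-carbon metabolism 16 were kept, and 4 were higher after bleomycin in Ephb4 control mice at an unadjusted p under 0.05, 0 lower, where 6.28% and 7.98% of all genes were. They included the folate dehydrogenase Aldh1l1 (1.19, SE 0.40), the glycine cleavage protein Gcsh (0.59, SE 0.23) and the thymidylate synthase Tyms (1.21, SE 0.54). In Ephb4 CKO versus control mice after bleomycin 4 were lower and 0 higher (9.18% and 11% of all genes), among them Tyms (-1.70, SE 0.55), the mitochondrial folate enzymes Mthfd1l (-1.46, SE 0.54) and Aldh1l2 (-3.72, SE 1.36). Aldh1l2 was 102 ± 12.5 CPM in bleomycin-treated Ephb4 control mice and 7.78 ± 6.82 CPM in bleomycin-treated Ephb4 CKO mice (n = 4 each). After PBS it was 28.8 ± 50.3 CPM (n = 4, 0.280 to 104) in Ephb4 control mice. In Ephb4 CKO mice it was 4.14 ± 4.83 CPM (n = 5) after PBS. Its log2 fold change for Ephb4 CKO versus control after PBS was -2.79 (SE 1.21), and its interaction -0.93 (SE 1.70). The medians of the list were 0.32 and -0.30 in the 2 bleomycin comparisons, and 0 genes passed after adjustment in edgeR.

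Proline, the other frequent residue of collagen, and glutamine were covered by 9 genes, 8 of them kept. Aldh18a1, which starts proline synthesis, was 46.3 ± 21.4 CPM after PBS and 105 ± 16.7 CPM after bleomycin in Ephb4 control mice, and 34.8 ± 13.1 CPM in bleomycin-treated Ephb4 CKO mice (n = 4 each), log2 fold changes of 1.19 (SE 0.37) and -1.60 (SE 0.37). Ornithine aminotransferase Oat had 0.63 (SE 0.25) and -0.79 (SE 0.26). The glutamine synthetase Glul, at 478 ± 359 CPM after PBS and 130 ± 7.11 CPM after bleomycin in Ephb4 control mice (n = 4 each), went the other way, with log2 fold changes of -1.88 (SE 0.56), 1.60 (SE 0.56) and an interaction of 2.01 (SE 0.75). The medians of this list were 0.25 and -0.03, and 0 of the 8 passed after adjustment in edgeR.

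**Figure D4:**
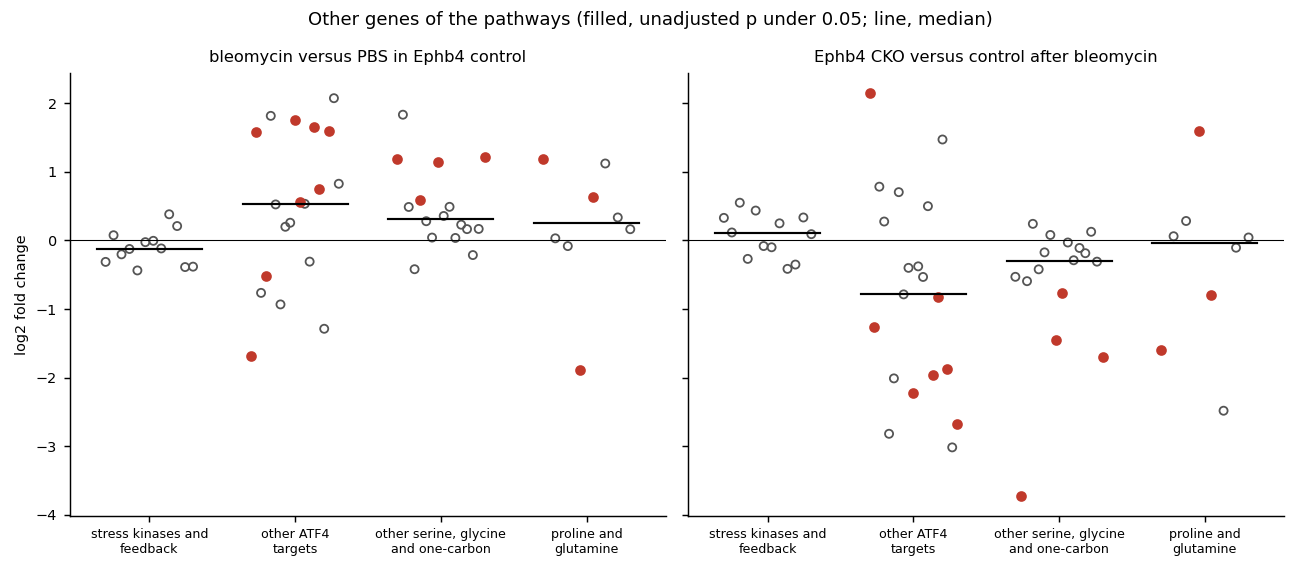
Fitted log2 fold changes (vertical axis) of the kept genes of 4 further lists in the 2 bleomycin comparisons, with genes at an unadjusted p under 0.05 filled and the median of each list as a line. The stress kinases and their feedback genes lay near 0 in both panels with none filled, while the other ATF4 targets had medians of 0.53 and -0.79.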

How the data were processed

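Lung fibroblast cultures of 17 mice were profiled by total RNA-Seq after removal of ribosomal RNA. The authors trimmed reads with Cutadapt, aligned them to GRCm38 with HISAT2 (2.1.0) in strand-specific mode and estimated transcripts with StringTie. The deposited values are whole-number counts per gene that StringTie's script derived from coverage and read length, without normalization, so genes with overlapping or near-identical transcripts depend on how coverage was divided.

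Genes over 10 CPM, before TMM scaling, in 2 or more libraries were kept, and TMM factors were taken from them. The 17 libraries were fitted together with 1 mean per group and no covariate by edgeR's quasi-likelihood test (edgeR 4.0.16, R 4.3.3, limma 3.58.1), with Benjamini-Hochberg adjustment over the genes kept at 0.05. Standard errors were the size of the fold change divided by the root of F. DESeq2 (1.42.0) and limma voom were alternatives, with other scalings, filters, covariates and sets of libraries. The batch term of the authors' own model could not be repeated, since the batch of each library is not given in the sources used here. The fits were tested on simulated counts of 10481 genes, 200 of them changed by a log2 of 3, up or down, in bleomycin-treated Ephb4 control mice. With the spread estimated for each gene, edgeR recovered 163 with 6 false calls, and DESeq2 182 with 40. With 1 dispersion of 0.05 for all genes, both recovered 200, with 13 false calls in edgeR and 26 in DESeq2. Marker scores average log2 CPM, with a prior count of 2, over the kept genes of a list. TPM used exon lengths of GENCODE M21.

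The genes, the lists and the tests were chosen with earlier results of these data known. The 10 genes were named in full, with Ephb4, Col1a1, Col1a2 and Col3a1; from each pathway list up to 3 genes with the smallest unadjusted p under 0.05 in each direction were named, and the 3 genes nearest to Atf4, Phgdh and Psat1. The glycine share encoded by each library, which needs protein sequences, was not analysed here. Replicates are separate mice.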

Additional observations from a re-analysis of the deposited data

Results flagged for a closer look

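In 40 groups of 4 or 5 libraries (10 genes in 4 groups), 3 had 1 mouse far from the others of its group by Dixon's test, where chance flags about 1 in 20 groups. Chac1 was 9.92 CPM in Ephb4 CKO bleomycin mouse 3 and at most 2.69 CPM in the other 3 mice of that group, and the same mouse was highest of its group for 8 of the 10 genes. Asns was 202 CPM in Ephb4 control bleomycin mouse 1 with the next mouse at 117 CPM, and Psph was 46.4 CPM in that mouse with the next at 27.5 CPM. The fibroblast markers of that mouse summed to 17017 CPM and its macrophage markers to 1508 CPM, the highest and the lowest of the 17 libraries, and their part in these values was not tested. Without it the log2 fold changes for bleomycin in Ephb4 control mice were 1.11 for Asns and 1.01 for Psph.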

How the results depend on the processing

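Over 33 alternatives, Asns, Psat1, Psph, Shmt2, Trib3, Chac1 and Mthfd2 had the same direction in both bleomycin comparisons, while their size and the calls varied. For Chac1 that direction was partly fixed by the filter. With the fibroblast score Psph was 0.63 in place of 1.22 and Shmt2 0.69 in place of 1.34 for bleomycin in Ephb4 control mice, and Chac1 ranged from -1.97 to -0.71 for Ephb4 CKO versus control after bleomycin. For bleomycin in Ephb4 control mice DESeq2 called 1 of the 10 genes, where it called 166 of 10481 genes in either direction. With the sorted runs of columns as a covariate it called 3 (231 of all genes), where edgeR called 0. DESeq2 with the runs was an alternative chosen after seeing the data. So were the animals numbered in series 12, the proliferation score and TMM factors from all genes. For Ephb4 CKO versus control after bleomycin DESeq2 called 4 (399 of all genes), and 4 with the runs (387 of all genes). On the fibroblast score DESeq2 called 1 of the 10 genes (17.7% of all genes). Leaving out 1 mouse there gave 0 to 1 in edgeR (2.77% to 15.8% of all genes). On the macrophage score DESeq2 called 2 (20.5% of all genes) and edgeR with sex as a covariate 1 (9.08%). Leaving out 1 mouse gave 0 to 2 on that score in edgeR (4.25% to 17.8% of all genes). In the counts simulated with the estimated spread, DESeq2 made 40 false calls and edgeR 6. Those counts held changes of a log2 of 3, larger than the fitted fold changes of the 10 genes. They therefore cannot tell which calls for the 10 genes are false or missed. The cause of the differences between settings was not tested.

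Genes at an unadjusted p under 0.05, with Chac1 included, went from 5 to 1 with the fibroblast score for bleomycin in Ephb4 control mice, and all genes from 658 to 216 higher. For Ephb4 CKO versus control after bleomycin they went from 7 to 4 with the fibroblast score, the macrophage score or without the libraries of mismatched sex, where all genes went from 962 to 249, 175 and 890 lower, and to 4 to 7 on leaving out 1 mouse. The median of the 10 genes in that comparison, -1.30, was -0.87, -0.92 and -0.92 under the same settings, and -1.73 to -1.08 on leaving out 1 mouse, the lowest without Ephb4 CKO bleomycin mouse 3. Among animals numbered in series 12 the medians were 1.38 for bleomycin in Ephb4 control mice, 0.066 for genotype after PBS, -0.14 for bleomycin in Ephb4 CKO mice and -1.21 for the interaction. Only 1 Ephb4 control PBS mouse is in that series, and all but the third of these medians rest on it. The interaction median was -0.87 in voom and -1.08 to -0.28 on leaving out 1 mouse, again lowest without Ephb4 CKO bleomycin mouse 3.

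Ddit3 turned its sign most often. For bleomycin in Ephb4 control mice its log2 fold change was 0.022 in voom, 0.69 with the fibroblast score, 0.37 with the macrophage score, 1.49 in series 12, and -0.65 to 0.37 on leaving out 1 mouse. For Ephb4 CKO versus control after bleomycin it was -0.12 in voom, -0.62, -0.63 and -0.39 with the fibroblast, macrophage and proliferation scores, -0.50 without the libraries of mismatched sex, and -0.59 to 0.32 on leaving out 1 mouse (-0.10 without Ephb4 control bleomycin mouse 1). Phgdh was -0.030 for bleomycin in series 12, and Atf4 was -0.031 to 0.27 on leaving out 1 mouse, with -0.024 without Ephb4 control bleomycin mouse 1.

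No paired analysis was possible because the labels give animal numbers without saying that similar numbers in different groups mark a shared litter, batch or day, and replicates were numbered here in accession order. The groups of 4 or 5 mice, the mixed cell content of the cultures and the unstated sequencing set of each library limit what these comparisons can separate. Chac1, the lowest of the 10 genes, was counted 104 times in its lowest library.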
